A study of Mus musculus with 24 samples.

Results

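The expression of 10 genes of the heat shock system was followed in oocytes that had grown in culture: the transcription factor gene Hsf1, the cytosolic chaperone genes Hspa1a, Hspa1b, Hspa8, Hsph1, Dnajb1, Hsp90aa1 and Hsp90ab1, and the mitochondrial chaperonin genes Hspd1 and Hspe1. They were taken as the rows of the RNA-seq table whose gene name was one of these 10, and all 10 were found among its 16572 gene names, each in 1 row. The oocytes came from ovaries of 7-day-old mice of the strain labelled C57BL/6 Barb, which the methods describe as C57 Black6 bred with SV129. The ovaries were dissociated with enzymes and the oocytes grew without follicles on gelatine, supported at first by theca-like cells according to the study. Class IV oocytes, labelled 60 to 70 µm, were collected after 9 days under 5% O2 (IV 5% O2) or after 14 days under 20% O2 (IV 20% O2), and the medium was changed more often under 5% O2. The study's text gives the IV 20% O2 oocytes a smaller size range than the label does. Oxygen, days in culture, medium changes and, by the study's text, oocyte size therefore cannot be told apart. Each condition had 2 libraries, but the table holds 1 pooled value per condition, so there is no replicate check, no SD and no test, and the intervals below cover counting error only. The RRBS and PBAT libraries of the series are not analysed here.

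Heat shock proteins are chaperones: they bind unfolded proteins, help them to fold and keep them from aggregating. In the cytosol, HSP70 proteins work through cycles of ATP hydrolysis, which J-domain proteins such as Dnajb1 start and nucleotide exchange factors such as the HSP110 protein Hsph1 complete. HSP90 takes over clients such as kinases and steroid receptors, while Hspd1 (HSP60) and its lid Hspe1 (HSP10) form a folding chamber in mitochondria. HSF1 is held inactive by chaperones in unstressed cells, and on stress it binds heat shock elements, arrays of the 5-base unit nGAAn in alternating orientation, at chaperone genes. In mouse oocytes HSF1 is a maternal factor, and Hsp90aa1 is known as one of its targets there.

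The promoters of the inducible genes are shown first, because heat shock elements are the sequence that these genes are known to share. RefSeq promoter windows (GRCm38.p6, 250 bases before to 50 bases after an annotated start) were matched for 6 of the 10 genes, in 9 windows. Hsf1, Hspa8, Hsp90aa1 and Hsp90ab1 had no entry in the set of windows used. The letters searched, on both strands, were GAANNTTC and TTCNNGAA (2 units) and GAANNTTCNNGAA and TTCNNGAANNTTC (3 units). The 2-unit motifs are their own reverse complements, the 3-unit motifs are each other's, and each 3-unit motif holds both 2-unit motifs. Of all 32851 promoter windows, 15.1% held a 2-unit match and 0.603% a 3-unit match. Of the 9 windows of the 6 matched genes, 6 held a 2-unit match and 4 a 3-unit match. Counted by gene, these were 5 of 6 and 3 of 6 (Hspd1, Hspe1 and Hsph1), but 3 of the genes have 2 overlapping or nearby windows. In both Dnajb1 windows these letters were not found. The stretches below run 5′ to 3′ on the gene's strand, with matches in capitals. Positions are counted from the annotated start, the base before it being -1. Hspa1a and Hspa1b are shown from -215 to -91, chr17:34972247-34972371 and chr17:34959329-34959453, both on the minus strand.
Hspa1a: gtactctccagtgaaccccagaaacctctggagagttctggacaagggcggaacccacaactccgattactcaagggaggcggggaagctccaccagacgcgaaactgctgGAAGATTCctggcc
Hspa1b: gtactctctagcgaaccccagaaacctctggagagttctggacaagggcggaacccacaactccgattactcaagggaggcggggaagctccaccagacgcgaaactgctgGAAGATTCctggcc

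The windows of the Hspa1 pair differed at 4 of 300 bases, 3 of them before the start (at -207, -204 and -2) and 1 after it (at 26). The single 2-unit match of each gene was the same 8 bases, at -104 to -97. Hspd1 and Hspe1 lie head to head on chromosome 1 and share 1 element, which is shown as each gene reads it from the stretch chr1:55088053-55088082. Each 18-base run in capitals holds 2 overlapping 3-unit matches.
Hspd1: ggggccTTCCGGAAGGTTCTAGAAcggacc
Hspe1: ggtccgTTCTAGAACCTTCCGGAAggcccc

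The element lies at -144 to -127 from the Hspd1 start at 55087932 and at -89 to -72 from the Hspe1 start at 55088148. In the GENCODE annotation the same 30 bases are also UTR of 1 longer Hspd1 transcript, and the window of the Hspd1 start at 55088243 held no match. Hsph1 held a 2-unit match before its start, at -54 to -47 or at -33 to -26 depending on which of its 2 annotated starts is used, and a 3-unit match after it.

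**Figure D1:**
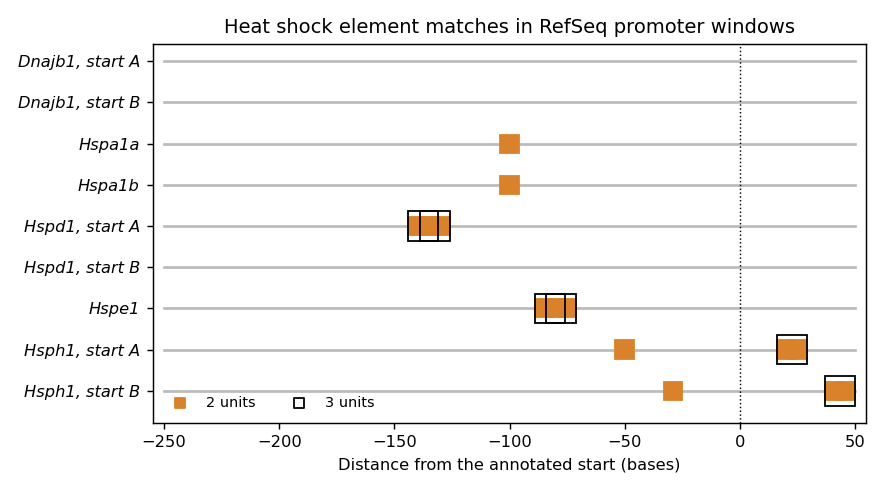
Matches to heat shock element letters in the 9 RefSeq promoter windows of 6 heat shock genes; the x axis is the distance from the annotated start in bases, filled boxes are 2-unit matches and open boxes 3-unit matches. Hspa1a and Hspa1b have 1 match at the same place, Hspd1 (1 of 2 starts) and Hspe1 have a run of overlapping matches, and Dnajb1 has none.

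The IV 5% O2 column rests on 132185260 reads and the IV 20% O2 column on 40875358, and values are given as RPM, the reads of a gene scaled to the same total in both columns. Differences are log2(RPM + 1) in IV 5% O2 minus IV 20% O2, and a gene counts as higher or lower when at least 2-fold apart on that scale. Among the 14704 genes that averaged 1 RPM or more over both columns, 18.7% were higher and 9.22% lower in IV 5% O2, the median difference was 0.26 and the quartiles were -0.31 and 0.82. The balance turned with the scaling of the columns, to 11.6% higher and 13.9% lower under median-ratio scaling and to 12.0% and 12.7% under quantile normalization. Among the 2002 genes that averaged 100 RPM or more, 12.6% were higher and 5.29% lower. The 11 oocyte markers were all present, with 0 higher, 3 lower, 4 of 11 above 0 and a median of -0.08. Among them Gdf9, a growth factor of oocytes, stood at 2346 RPM in IV 5% O2 and 2805 RPM under 20% O2, and Zp3, a protein of the zona pellucida, at 690 and 1501 RPM. Of 16 theca and stroma markers 10 were in the table and summed to 45.3 RPM in IV 5% O2 and 5.48 RPM under 20% O2, with 7 of 7 tested above 0, 6 at least 2-fold higher, and Vim, Dcn and Col1a2 without reads in IV 20% O2. Of those 7, Cyp11a1, Hsd3b1, Dcn, Postn and Vim were under 1 RPM in IV 20% O2 and reached the mean of 1 RPM through the IV 5% O2 column, so the filter largely fixed that they lay above 0. Of 11 granulosa markers 6 were in the table, without Foxl2 and Amh, and summed to 41.3 and 29.8 RPM, with 4 of 4 tested above 0 and a median of 0.68. Inhba, 1 of these 4, was likewise under 1 RPM in IV 20% O2 (2.63 and 0.758 RPM), so the filter largely fixed its sign. Macrophage markers (3 of 7 in the table, without Ptprc) summed to 17.9 and 21.1 RPM, endothelial markers (3 of 5) to 61.0 and 36.1 RPM, of which Pecam1 gave 45.9 and 32.7 RPM and Tek 13.8 and 3.40 RPM, and the 1 of 5 erythroid markers to 1.32 and 1.57 RPM. Like the 3 theca and stroma markers, Lyz2 (184 reads in IV 5% O2), Kdr (172 reads) and the granulosa marker Inha (89 reads) had no reads in IV 20% O2, while the granulosa marker Fshr had 0 reads in IV 5% O2 and 6 in IV 20% O2. Tek, Lyz2, Kdr, Inha, Inhba and Fshr are named after their values were seen. The part of such cells in the differences below was not tested.

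Of the 10 heat shock genes, 3 were at least 2-fold higher in IV 5% O2 (Hspa1b, Hsp90ab1 and Dnajb1) and 0 were at least 2-fold lower, where the background was 18.7% and 9.22% of all genes tested and 12.6% and 5.29% of those of at least 100 RPM. Under median-ratio scaling 1 was higher and 1 lower, and under quantile normalization 2 and 1. The differences of 6 were above 0 and those of 4 below, 4 of the 10 lay above the median gene, and the median was 0.19 (-0.0556 under median-ratio scaling and -0.14 under quantile normalization). The largest difference was 1.46 at Hspa1b and the lowest -0.97 at Hspe1, so that Dnajb1 (1.03) lay just inside the 2-fold limit and Hspe1 just outside it. The interval of each crossed the limit, from 0.99 to 1.07 for Dnajb1 and from -1.03 to -0.90 for Hspe1. In pooled RNA of many oocytes, a change in the number of cells with a transcript and a change in the transcript per cell cannot be told apart.

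**Figure D2:**
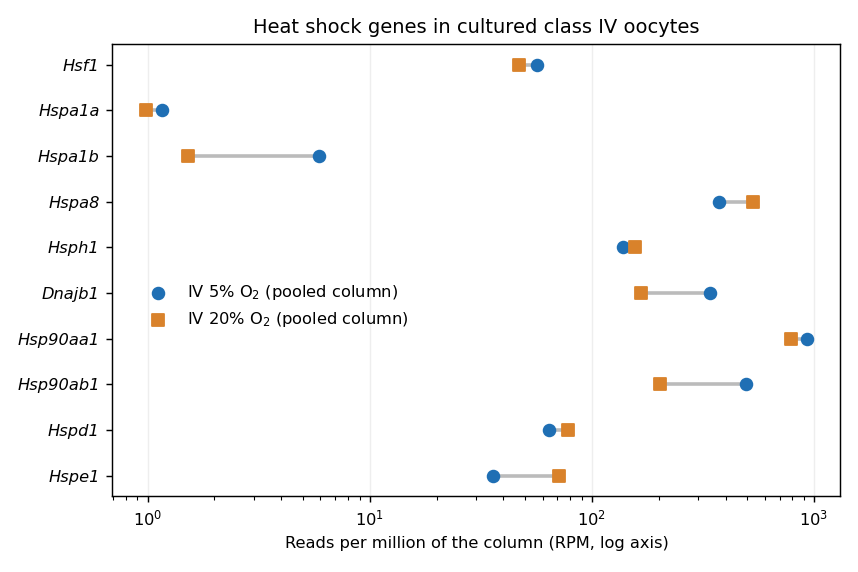
RPM of the 10 heat shock genes in the pooled IV 5% O2 (circles) and IV 20% O2 (squares) columns, on a log axis, with 1 value per condition. The widest gaps are at Hspa1b, Hsp90ab1 and Dnajb1, which are higher in IV 5% O2, and at Hspe1, which is higher in IV 20% O2.

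The 10 genes together took 2446 RPM in IV 5% O2 and 2044 RPM under 20% O2, which is 0.295% and 0.281% of the reads on genes. The sum was thus 1.20-fold higher in IV 5% O2, or 0.26 on the log2 scale (0.25 to 0.27), which is also the median gene's difference. RPM are per read of the whole column, of which a larger share lay on genes in IV 5% O2, and under median-ratio scaling the ratio was 0.959. What differed was the make-up of the sum. Hsp90aa1 held 38.2% of it in IV 5% O2 and 38.5% in IV 20% O2. Hspa8 held 15.2% and 26.0%, whereas Hsp90ab1 held 20.2% and 9.92% and Dnajb1 14.0% and 8.18%.

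Hsf1 (chr15:76477422-76501913, plus strand), the stress-activated transcription factor, was read at 56.8 RPM (7509 reads) in IV 5% O2 and 46.8 RPM (1912 reads) in IV 20% O2. The difference of 0.27 (0.20 to 0.35) placed it at the 50.7th percentile of genes tested, level with the median gene. An mRNA level says nothing of the activity of HSF1, which is set by trimer formation and modification of the protein. Of 9 heat shock factors and partners, Hsf1 included, 5 were in the table, 1 was higher and 0 lower, beside 18.7% and 9.22% of all genes tested, and Hsf1 itself was the median of the 5. The 1 higher was Hsf5, a factor known from the germ line, at 31.9 and 8.64 RPM (1.77), while Hsbp1, which binds HSF1 trimers, stood at 49.95 and 57.5 RPM (-0.20).

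The inducible HSP70 genes Hspa1a and Hspa1b, single-exon genes that lie near each other on chromosome 17, were the least read of the 10. Hspa1b (chr17:34956436-34959238, minus strand) stood at 5.92 RPM (783 reads) in IV 5% O2 and 1.52 RPM (62 reads) in IV 20% O2. This was a difference of 1.46 (1.22 to 1.69), at the 91.8th percentile of genes tested, and without the pseudocount the ratio was 3.91. With a pseudocount of 5 RPM in place of 1 it was no longer at least 2-fold higher. Hspa1a (chr17:34969190-34972156, minus strand) stood at 1.17 RPM (154 reads) and 0.979 RPM (40 reads), a difference of 0.13 whose interval ran from -0.14 to 0.38, so that no difference was detectable at this depth. Both were thus low in both conditions, and the gap between columns lay in the Hspa1b row. Within a column there were 5.08 Hspa1b reads per Hspa1a read in IV 5% O2 (4.27 to 6.08) and 1.55 in IV 20% O2 (1.03 to 2.37), a ratio of ratios of 1.71 on the log2 scale (1.09 to 2.34).

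The division of reads between these 2 rows is uncertain, because the coding sequences were 99.4% identical. Of the exonic 100-base windows, 49.1% of Hspa1a and 49.4% of Hspa1b occurred elsewhere in the genome, most of them in the other gene of the pair (136 Hspa1a windows in Hspa1b). Over all exonic bases the pair was 84.3% identical. The Hspa1a 50-base windows that occur in Hspa1b lay at chr17:34957059-34959211 there, which leaves out its 3′ end, so that reads from that end can tell the pair apart. How reads with several matches were treated is not given in the sources used here. Summed as 1 gene, the pair stood at 7.09 RPM and 2.50 RPM, a difference of 1.21 (0.99 to 1.43). Over 564 exonic bases, 19.0% of its length, Hspa1a also overlaps Gm20481 on the opposite strand. The libraries were made strand-specific, but whether counting used the strand is not given in the sources used here.

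Hspa8 (chr9:40800984-40810087, plus strand), the constitutive HSP70 of the cytosol, was read at 373 RPM (49274 reads) in IV 5% O2 and 532 RPM (21748 reads) in IV 20% O2. It lay opposite to Hspa1b, with a difference of -0.51 (-0.54 to -0.49), at the 18.8th percentile of genes tested. Its level was so far above the inducible pair that the 3 cytosolic HSP70 genes summed to 380 RPM and 535 RPM (-0.49). Of the Hspa8 exonic 100-base windows, 24.7% were repeated at 5 other loci, all 5 with annotated processed pseudogenes (Gm15459 with 90 matches and Gm8355 with 38). Hspa8 also hosts the small nucleolar RNAs Snord14c, Snord14d and Snord14e on its own strand. The mitochondrial HSP70 Hspa9, the gene with the most reads per kb among 5 further HSP70 genes in the table, stood at 348 and 365 RPM (-0.07). Of these 5 genes 0 were at least 2-fold higher or lower, beside 18.7% and 9.22% of all genes tested, and their median of 0.13 turned to -0.18 under median-ratio scaling and -0.0210 under quantile normalization.

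Dnajb1 (chr8:83608193-83612653, plus strand), the heat-inducible HSP40 that loads clients on HSP70, was read at 342 RPM (45242 reads) in IV 5% O2 and 167 RPM (6830 reads) in IV 20% O2. The difference of 1.03 (0.99 to 1.07) was at the 82.1st percentile. Hsph1 (chr5:149614287-149636376, minus strand), the HSP110 exchange factor, stood at 138 RPM (18297 reads) and 156 RPM (6379 reads), a difference of -0.17 (-0.21 to -0.13) at the 30.1st percentile. The HSP70 partners thus differed in direction. Per Hspa8 read there were 0.918 Dnajb1 reads in IV 5% O2 and 0.314 in IV 20% O2, a log2 ratio of ratios of 1.55 (1.504 to 1.591). Per Hspa8 read there were 0.371 and 0.293 Hsph1 reads (0.34, 0.29 to 0.39). Such ratios within a column are not changed by a single scaling factor per column, though quantile normalization can change them, and these pairs were chosen after the values were seen.

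Among 11 J-domain genes of classes A and B in the table, Dnajb1 included, 2 were higher (18.7% of all genes tested were) and 0 lower (9.22%), with a median of 0.28. Under median-ratio scaling and under quantile normalization of the columns 1 of the 11 was higher, and the median was 0.0616 and 0.13. Dnajb4, a close relative of Dnajb1, had the largest difference of the list, with 175 and 37.5 RPM (2.19). Dnaja2, a class A partner of HSP70, had the most reads per kb and stood at 344 and 178 RPM (0.95). Against Dnaja1, the class A gene that is also heat-inducible, Dnajb1 gave 0.829 reads per read in IV 5% O2 and 0.685 in IV 20% O2 (0.28, 0.23 to 0.32). Among 8 HSP110 and exchange factor genes, Hsph1 included, 2 were higher and 0 lower (median -0.02), and under these scalings 1 was higher and the median was -0.34 and -0.23. The 2 were Bag1 (34.0 and 11.8 RPM, 1.45) and Bag6 (63.8 and 30.3 RPM, 1.05), BAG-domain proteins, and Hspa4, the HSP110 gene with the most reads per kb, stood at 282 and 350 RPM (-0.31).

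The cytosolic HSP90 genes are close paralogs, of which Hsp90aa1 is known as the more stress-inducible and Hsp90ab1 as the constitutive one. Hsp90aa1 (chr12:110690605-110702728, minus strand) was read at 934 RPM (123505 reads) in IV 5% O2 and 787 RPM (32179 reads) in IV 20% O2, a difference of 0.25 (0.23 to 0.26) at the 49.5th percentile. Hsp90ab1 (chr17:45567775-45573271, minus strand) stood at 495 RPM (65372 reads) and 203 RPM (8291 reads), a difference of 1.28 (1.25 to 1.31) at the 88.5th percentile. Hsp90aa1 thus moved no further than the median gene, and the gap was in Hsp90ab1. Hsp90ab1 gave 0.529 reads per Hsp90aa1 read in IV 5% O2 and 0.258 in IV 20% O2, or 0.694 and 0.338 per kb, with a log2 ratio of ratios of 1.04 (1.00 to 1.08). The pair summed to 1429 and 990 RPM (0.53, 0.51 to 0.54).

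The pair differed in repeated sequence as well. Of the Hsp90aa1 exonic 100-base windows 43.8% occurred at 4 other loci, with 109 matches at the pseudogene Gm12346 inside Ssh2 and 54 at Gm5844, and of those of Hsp90ab1 0%. Ssh2, which hosts the first of these copies, stood at 23.1 RPM in IV 5% O2 and 66.6 RPM under 20% O2. The pseudogenes have no row of their own under these names in the table. The part of reads from such copies in the Hsp90aa1 and Hspa8 values was not tested.

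Of 22 co-chaperones of HSP90, all in the table, 7 were higher and 1 lower, with a median of 0.46, where 18.7% of all genes tested were higher and 9.22% lower. Under median-ratio scaling and under quantile normalization 5 were higher and 2 lower, with medians of 0.15 and 0.29. Fkbp8, a peptidyl-prolyl isomerase anchored in membranes, stood at 87.4 and 26.3 RPM (1.70), and Stip1 (HOP), the adaptor between HSP70 and HSP90, at 245 and 81.1 RPM (1.58). Nudc, another partner of HSP90, stood at 259 and 86.5 RPM (1.57). The 1 lower was Unc45a, a chaperone for myosin, at 14.4 and 44.7 RPM (-1.57). There were 0.496 Stip1 reads per Hsp90ab1 read in IV 5% O2 and 0.400 in IV 20% O2 (0.31, 0.25 to 0.37). Hsp90b1, the HSP90 of the endoplasmic reticulum, gave 0.642 and 1.414 reads per Hsp90ab1 read (-1.14, -1.18 to -1.09).

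The mitochondrial pair was higher in IV 20% O2. Hspd1 (chr1:55077835-55088243, minus strand) was read at 63.9 RPM (8449 reads) in IV 5% O2 and 77.8 RPM (3180 reads) in IV 20% O2, a difference of -0.28 (-0.34 to -0.22) at the 26.1st percentile. Hspe1 (chr1:55088132-55091307, plus strand) stood at 36.03 RPM (4763 reads) and 71.4 RPM (2919 reads), a difference of -0.97 (-1.03 to -0.90) at percentile 9.62, which is 1.98-fold lower in IV 5% O2 by the ratio of RPM. Although the genes share the element printed above, they did not differ by the same amount. There were 0.564 Hspe1 reads per Hspd1 read in IV 5% O2 and 0.918 in IV 20% O2, a log2 ratio of ratios of -0.70 (-0.79 to -0.61).

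The exons of Hspd1 and Hspe1 overlap by 112 bases on opposite strands, 4.24% of Hspd1 and 7.60% of Hspe1. Of the Hspd1 100-base windows 21.9% were repeated at 2 other loci (30 matches at Hspd1-ps3), and of those of Hspe1 0%, although 16.9% of the Hspe1 50-base windows were. Of 16 mitochondrial chaperone and protease genes, which include the pair, 1 was higher and 1 lower, with a median of 0.07, against 18.7% and 9.22% of all genes tested. Under median-ratio scaling and under quantile normalization 0 were higher and 2 lower. Clpb, a mitochondrial disaggregase, stood at 176 and 75.7 RPM (1.21) and Hscb, a J-domain protein of iron-sulfur cluster assembly, at 11.2 and 29.02 RPM (-1.30). There were 5.44 Hspa9 reads per Hspd1 read in IV 5% O2 and 4.69 in IV 20% O2 (0.21, 0.15 to 0.28).

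Levels of different genes can be compared per length only, here as RPM per kb of merged GENCODE exons. In IV 5% O2 the order was Hsp90aa1 (238), Hsp90ab1 (165), Dnajb1 (107), Hspa8 (86.7), Hspe1 (24.4), Hspd1 (24.2), Hsph1 (19.1), Hsf1 (8.002), Hspa1b (2.11) and Hspa1a (0.393). In IV 20% O2 Hsp90aa1 (200) was followed by Hspa8 (124), Hsp90ab1 (67.6), Dnajb1 (52.2), Hspe1 (48.4), Hspd1 (29.4), Hsph1 (21.5), Hsf1 (6.59), Hspa1b (0.541) and Hspa1a (0.330). Hspa8 was thus the second gene of the order in IV 20% O2 and the fourth in IV 5% O2, and the others kept their order. Neighbours differed beyond counting error except Hspe1 and Hspd1 in IV 5% O2, whose ratio was 1.01 (0.97 to 1.05). With the length of the longest transcript in place of merged exons, Hspa8 lay above Dnajb1 in IV 5% O2 (118 and 114), Hspe1 above Dnajb1 in IV 20% O2 (74.1 and 55.8), and Hsph1 above Hspd1 in both.

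All differences shift with the scaling of the columns, since most genes lay above 0 as deposited. Under median-ratio scaling, which sets the median gene close to 0 (-0.04), and under quantile normalization (0.06), every heat shock gene moved down. Hspa1b remained at least 2-fold higher under both, at 1.23 and 1.22. Hsp90ab1 stood at 0.96 and 1.11, and Dnajb1 at 0.71 and 0.79, so that Dnajb1 was at least 2-fold higher under neither. Hspe1 was at least 2-fold lower under both, at -1.28 and -1.15. The sign of Hspa1a turned under both, to -0.04 and -0.27, and Hsf1 (-0.04 and 0.10) and Hsp90aa1 (-0.07 and 0) went below 0 under median-ratio scaling. Relative to the median gene of the table as deposited, the differences were 1.20 for Hspa1b, 1.02 for Hsp90ab1, 0.77 for Dnajb1, -0.77 for Hspa8 and -1.23 for Hspe1.

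**Figure D3:**
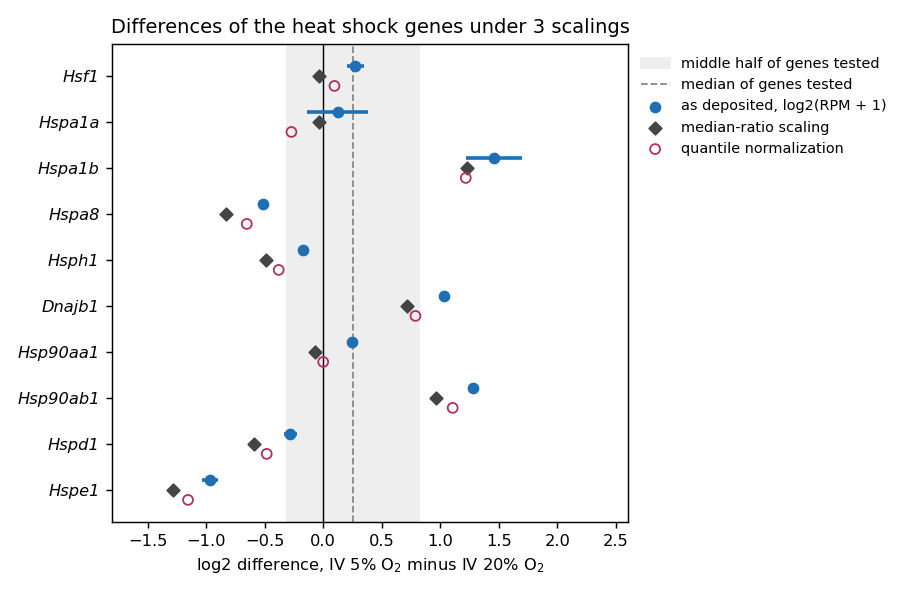
Difference in log2(RPM + 1), IV 5% O2 minus IV 20% O2, of the 10 heat shock genes as deposited (circles, with 95% intervals that cover counting error), under median-ratio scaling (diamonds) and under quantile normalization (open circles). Hspa1b, Hsp90ab1 and Dnajb1 lie to the right of 0 and Hspa8, Hsph1, Hspd1 and Hspe1 to the left under all 3. Hsf1, Hspa1a and Hsp90aa1 lie to the right of 0 as deposited and to the left under median-ratio scaling.

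Repeated sequence moved with the differences of other genes in the table. Other genes without a repeated exonic 100-base window had a median of 0.32 (n = 11144), those with 10% to under 50% repeated had -0.01 (n = 706), and those with at least 50% repeated had -1.65 (n = 365), of which 64.1% were at least 2-fold lower in IV 5% O2. No heat shock gene was in the last class by 100-base windows. By 50-base windows, Hspa1a (61.0%), Hspa1b (62.0%), Hsp90aa1 (55.9%) and Hspd1 (51.9%) had at least 50% repeated, a class in which 524 other genes had a median of -1.22 and 53.1% were at least 2-fold lower. Hsf1, Hsph1, Dnajb1, Hsp90ab1 and Hspe1 had no repeated 100-base window, and their differences ran from -0.97 to 1.28. Hspa1a, Hspa1b, Hspa8, Hsp90aa1 and Hspd1 had 21.9% to 49.4% repeated, and ran from -0.51 to 1.46. The largest gaps of the 10 genes, at Hspa1b on one side and Hspe1 on the other, thus lay in different classes of 100-base windows. Of the 5 genes without a repeated window, 2 of 5 were at least 2-fold higher (Hsp90ab1 and Dnajb1), against 20.0% of the 11149 genes tested of that kind. Exonic GC content moved with the differences too, with a median of 0.48 among the 2934 other genes with the highest GC content, the class that holds Hspa1a and Hspa1b, and of 0.16 among the 2934 with the lowest, which holds none of the 10. Among the 2933 shortest genes, the class of Hspe1, it was 0.17. The part of repeats, GC content and length in the differences was not tested.

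**Figure D4:**
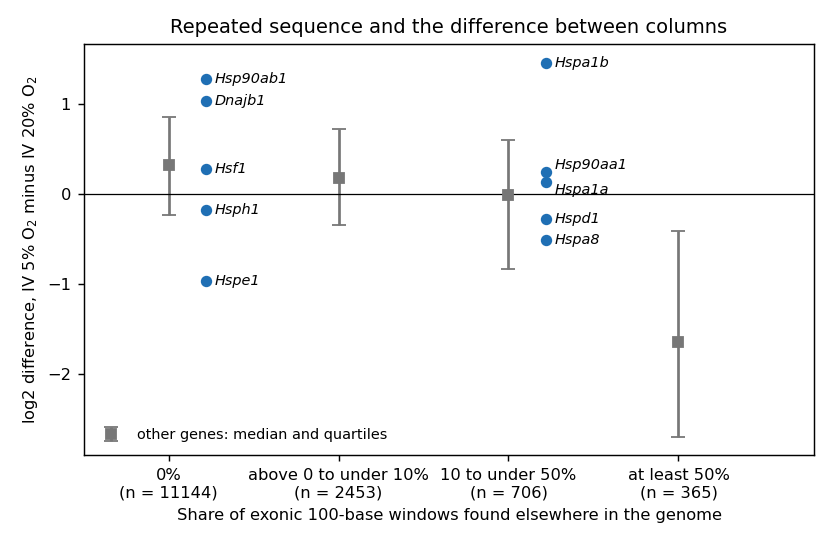
Difference in log2(RPM + 1), IV 5% O2 minus IV 20% O2, by the share of exonic 100-base windows that occur elsewhere in the genome; squares and bars are the median and quartiles of other genes, points are the heat shock genes. Other genes fall from a median of 0.32 without repeats to -1.65 with at least 50%, and the heat shock genes lie in the classes at 0% and at 10 to under 50%; by 50-base windows, not plotted, Hspa1a, Hspa1b, Hsp90aa1 and Hspd1 have at least 50% repeated.

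The remaining chaperone lists are given by their counts, beside 18.7% higher and 9.22% lower among all genes tested. Of 19 genes listed as heat-inducible targets of HSF1, 18 were in the table, 9 of them among the 10 genes above, 6 were higher and 0 lower, with a median of 0.32. Under median-ratio scaling 3 were higher and 1 lower with a median of 0.0229, and under quantile normalization 4 and 1 with a median of 0.10. The 6 higher as deposited include Hspa1b, Hsp90ab1 and Dnajb1, which were counted above, and the list also holds Hspa8 and Hsp90ab1, described above as constitutive. Among genes of the list with under 10% of 50-base windows repeated 4 were higher and the median was 0.96, where that of all genes tested of that kind was 0.30. Among those without any repeated 100-base window 2 were higher and the median was 0.40, where that of all genes was 0.32. Outside the 10 genes, the largest differences of this list were those of Stip1 and of Hspb1, a small heat shock protein, at 4.403 and 1.13 RPM (1.35). Hspb1 rests on 46 reads in IV 20% O2, and 40.5% of its exonic 100-base windows were repeated. The table had 4 small heat shock genes, of which 3 were tested, 1 was higher (Hspb1) and 0 lower, and 1 was lower under both median-ratio scaling and quantile normalization. With a pseudocount of 5, 0 small heat shock genes were higher. The cytosolic chaperonin CCT, which folds actin and tubulin, had 1 of 9 genes higher and a median of 0.62. That 1 was Cct6b, with 258 reads in IV 5% O2 and 2 in IV 20% O2 (1.95 and 0.0489 RPM), which passed the filter through the IV 5% O2 column alone. With a pseudocount of 5, with a mean of at least 5 RPM or after division by exonic length 0 CCT genes were higher. Cct5, with the most reads per kb of the CCT genes, stood at 274 and 167 RPM (0.72). Prefoldin, which hands clients to CCT, had 1 of 6 higher (Pfdn6, 29.4 and 12.9 RPM, 1.13) and a median of 0.56. Chaperones of the endoplasmic reticulum had 1 of 13 higher (Dnajb11, 75.6 and 36.9 RPM, 1.01) and a median of 0.38, with Calr, a lectin chaperone, at 460 and 244 RPM (0.91). Under median-ratio scaling and under quantile normalization 0 genes of CCT, prefoldin and the endoplasmic reticulum list were higher, and 1 prefoldin gene was lower under median-ratio scaling. The medians under these scalings were 0.0739 and 0.19 for CCT, 0.26 and 0.39 for prefoldin and 0.0665 and 0.17 for the endoplasmic reticulum list.

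**Figure D5:**
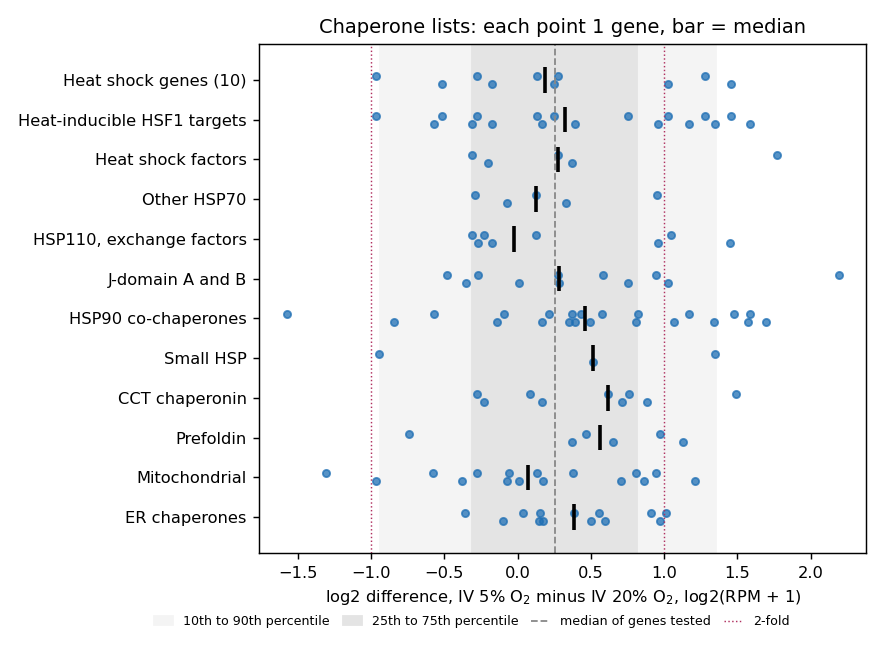
Difference in log2(RPM + 1), IV 5% O2 minus IV 20% O2, of each gene tested in 12 chaperone lists (points) with the list median (bars); bands mark the 25th to 75th and the 10th to 90th percentile of all genes tested, the dashed line their median and dotted lines 2-fold. The 10 heat shock genes spread from -0.97 to 1.46 around a median of 0.19, and the list medians lie between -0.02 and 0.62.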

How the data were processed

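RNA was depleted of ribosomal RNA and made into strand-specific libraries, which the authors aligned to mm10 with TopHat (TopHat2 2.0.9 in the submitters' processing notes). The methods describe merging reads across the exons of an oocyte annotation in SeqMonk, and log2 values were deposited, 1 per gene and condition. Since most rows have exactly the coordinates of a GENCODE gene (counted below), which annotation the values rest on is not certain. How the 2 libraries of a condition were pooled is not given in the sources used here. The values are described as corrected for length, but on the linear scale they step by a fixed amount, 1 read, whatever the gene, so the deposited log2 values were read as log2 RPM. Within 0.05 reads, 99.9% and 100.0% of values came out whole. Genes at 0.9 of a read, the value that stands for no reads, were set to 0. The table has 1 further value column, of no sample here, which was not used. For the 18 names with several rows among 16591 rows, the row with the highest mean was used.

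Differences used a pseudocount of 1 RPM over genes that averaged at least 1 RPM. The limma test planned for separate libraries was not run on pooled columns, and genes at least 2-fold apart were counted in its place. Intervals at 95% come from the Clopper-Pearson bounds of a gene's reads in IV 5% O2 among its reads in both columns, carried to log2(RPM + 1), and from a normal approximation for a ratio of ratios. Reads amplified by PCR are not independent molecules, so the intervals cover counting error only. A floor of 3 reads is 0.0227 RPM under 5% O2 and 0.0734 RPM under 20% O2. The calculation was tested on simulated reads. Lengths, overlaps and windows repeated in the genome (every 10 bases along exons, at least 2 occurrences in 22 chromosome sequences) came from GENCODE and the GRCm38 genome; 16401 rows had exactly the coordinates of a GENCODE gene. All 10 heat shock genes are named, and from each wider list up to 4 genes, those at least 2-fold apart with the largest differences, plus the one with the most reads per kb. Dnaja1 and Hsp90b1 were named for ratios chosen after their values were seen. The genes and lists were chosen with earlier results of these data known. The tools were scipy 1.17.1, numpy 2.4.6 and pandas 2.3.3 in Python 3.11.15, and numba 0.67.0 for the genome scan.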

Additional observations from a re-analysis of the deposited data

How the results depend on the processing

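No paired analysis was possible because the table holds 1 pooled value per condition; for the same reason no replicate was left out and limma was not run. Under median-ratio scaling 1700 genes were at least 2-fold higher and 2031 lower (11.6% and 13.9%), the median of all genes was -0.0404 and that of the heat shock genes -0.0556, 1 of the 10 was higher and 1 lower, their summed RPM had a ratio of 0.959, and values turned to -0.0387 for Hsf1, -0.0352 for Hspa1a, -0.0725 for Hsp90aa1, -0.0387 for the heat shock factors, -0.18 for other HSP70 genes and -0.24 for mitochondrial chaperones. Under quantile normalization these were 1764 genes higher and 1866 lower (12.0% and 12.7%), a heat shock median of -0.14, 1 of the 10 lower, a summed ratio of 1.04, and -0.27 for Hspa1a, -0.0210 for other HSP70 genes and -0.13 for mitochondrial chaperones. With a pseudocount of 0.1 the heat shock median was 0.24. With a pseudocount of 5, 1202 genes were higher and 706 lower and the median was 0.14. With a mean of at least 5 RPM, which leaves out Hspa1a and Hspa1b, 1691 genes were higher, the heat shock median was 0.0375 and that of the HSP110 and exchange factors turned to 0.13. Division by exonic length gave 1602 genes higher, 897 lower, a median of 0.25 and a summed ratio of 1.22. Among genes with under 10% of 50-base windows repeated, which keeps 4 of the 10, 878 were lower, the heat shock median was 0.65 and the summed ratio 1.80. Without any repeated 100-base window, an alternative chosen after seeing the data, 740 were lower and the median was 0.27. Beyond the scaling and the filters' construction, the cause was not tested. The IV 20% O2 depth limits Hspa1a and Hspa1b, with 40 and 62 reads.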

Other observations

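Immediate-early genes, which are switched on within minutes by many stimuli, were listed beside the heat shock genes. Of 10 such genes 9 were in the table and 8 tested, of which 6 were at least 2-fold higher in IV 5% O2 and 0 lower (18.7% and 9.22% of all genes tested), with a median of 1.59 where that of the 10 heat shock genes was 0.19. Junb stood at 25.2 RPM in IV 5% O2 and 2.42 RPM under 20% O2 (a difference of 2.94), Gadd45b at 21.9 and 3.06 RPM (2.50), Ier2 at 47.6 and 8.22 RPM (2.40) and Fos at 6.48 and 1.17 RPM (1.78). Atf3, with the most reads per kb of the list, stood at 56.1 and 76.1 RPM (-0.43). The theca and stroma markers were higher in the same column (45.3 and 5.48 RPM summed), and their part in these values was not tested.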
